A study of Homo sapiens with 19 samples.

Results

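The genes described here are 10 genes that mark or control epithelial and mesenchymal identity, followed in 786-O cells that differed in which HIF-α protein they carried. They were chosen by symbol from the 23441 genes of the count table and not by a rule on measured values, though earlier results of these data were known. CDH1 and EPCAM mark epithelial cells, CDH2, VIM and FN1 mark mesenchymal cells, and SNAI1, SNAI2, ZEB1, ZEB2 and TWIST1 encode transcription factors that drive the change from the first state to the second. For each gene the counts of all 9 RNA-seq libraries were taken, together with the peaks of the 7 ChIP-seq lists around its start sites.

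Epithelial cells hold to each other through E-cadherin, the product of CDH1, and cells that lose it and gain N-cadherin, vimentin and a fibronectin matrix are called mesenchymal. The SNAIL and ZEB proteins bind E-box sequences and repress CDH1. Tubular epithelium of the kidney is itself unusual in that N-cadherin is a normal cadherin of proximal tubule cells. HIF transcription factors are dimers of an oxygen-regulated α subunit with HIF-1β, and they bind a short core sequence in hypoxia response elements. Several of the genes named above have been linked to hypoxia in other cells.

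786-O is a clear cell renal carcinoma line that lacks functional pVHL, so HIF-α subunits are not degraded in it. All groups share that defect and carry endogenous HIF-2α, and no group has pVHL restored. The line itself makes only truncated HIF-1α transcripts, and full-length HIF-1α came from the virus in the pool that received it. Pools of these cells were transduced with the empty bicistronic EGFP virus pRRL (control cells), with pRRL-HIF-1a (HIF-1α re-expressing cells) or with pRRL-HIF-2a (HIF-2α overexpressing cells). All pools come from 1 cell line, and each level is an average over a pool of infected cells, in which fewer cells expressing a gene and less RNA per cell cannot be told apart. RNA-seq was done on 3 libraries per pool, numbered 1 to 3 in each. ChIP-seq was done once per antiserum and pool, for HIF-1β and HIF-2α in every pool and also for HIF-1α in the pool that re-expressed it.

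The libraries held 27852754 to 54287621 counts. HIF1A was at 30.4, 36.7 and 152 CPM (counts of a gene per 1000000 counts of the library, scaled by TMM) in control cells, 171, 1682 and 473 in HIF-1α re-expressing cells and 15.3, 30.4 and 17.5 in HIF-2α overexpressing cells, so that control library 3 and HIF-1α library 1 lay close together. EPAS1, which encodes HIF-2α, was at 162 to 456 CPM in control cells and 880 to 3244 CPM in HIF-2α overexpressing cells. In HIF-1α re-expressing cells it was at 397 to 627 CPM, which overlapped control. Within library numbers that was 1.26-fold, 2.80-fold and 2.45-fold the control level. Libraries with the same number deviated together across pools, with correlations of 0.348 to 0.652 across genes for the 9 pairs of the same number and of -0.478 to 0.0281 for the 18 other pairs. A fit that holds this number as a block is therefore given beside the fit on pool alone wherever it changes a call. Of 9 renal markers 8 were tested, led by PAX8 at 175 to 364 CPM, and all 6 leukocyte and endothelial markers stayed under 1 CPM, with CD3E at 0 in all libraries.

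Sequences at selected HIF peaks around SNAI1, FN1, CDH2 and EPCAM are shown first, with the motifs they hold. They are not always the peak closest to a start site, and the peaks next to VIM, ZEB1 and ZEB2 are not printed. Each was read from GRCh37 on the strand of the gene, around the midpoint of the peak, in lower case. Capitals mark the core of the hypoxia response element (ACGTG or GCGTG), the AP-1 site (TGACTCA or TGAGTCA) and the E-box CAGGTG, searched on both strands within 150 bp of the midpoint. SNAI1 carried a HIF-2α site in intron 2 in all 3 pools, with 2 hypoxia response cores and 1 AP-1 site (chr20:48603877-48604118, plus strand, midpoint of the control HIF-2α peak). FN1 carried a HIF-1α site just upstream of its start with none of the 3 motifs (chr2:216300883-216301002, minus strand, overlapping the first exon of the divergent non-coding gene FN1-DT), and a HIF-2α site in intron 13 with 2 AP-1 sites (chr2:216275721-216275815, minus strand). CDH2 carried a site in intron 1 with a hypoxia response core and an E-box (chr18:25730138-25730279, minus strand). EPCAM had a HIF-2α site upstream of its canonical transcript with a hypoxia response core and an AP-1 site (chr2:47581808-47581925, plus strand).
SNAI1 intron 2: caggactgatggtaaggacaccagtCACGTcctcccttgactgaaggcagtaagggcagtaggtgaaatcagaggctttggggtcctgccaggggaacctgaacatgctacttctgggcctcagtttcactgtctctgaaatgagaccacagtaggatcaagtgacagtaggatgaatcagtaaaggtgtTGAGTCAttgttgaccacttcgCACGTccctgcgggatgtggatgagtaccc
FN1 promoter: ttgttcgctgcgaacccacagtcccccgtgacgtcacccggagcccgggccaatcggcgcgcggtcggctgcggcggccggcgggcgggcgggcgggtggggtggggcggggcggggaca
FN1 intron 13: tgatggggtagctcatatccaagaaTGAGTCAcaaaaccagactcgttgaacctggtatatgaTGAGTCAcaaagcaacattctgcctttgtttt
CDH2 intron 1: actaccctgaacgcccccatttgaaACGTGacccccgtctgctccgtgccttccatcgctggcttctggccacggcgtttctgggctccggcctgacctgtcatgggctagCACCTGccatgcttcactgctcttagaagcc
EPCAM upstream: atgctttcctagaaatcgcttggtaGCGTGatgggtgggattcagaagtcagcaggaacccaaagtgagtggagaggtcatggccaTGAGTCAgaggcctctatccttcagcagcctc

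Per length of transcript, VIM, FN1 and CDH2 were above CDH1 and EPCAM in every library. This order did not extend to all genes of the 2 kinds, since in control cells the keratin gene KRT8 was at 310.3 ± 33.2 RPKM (SD, n = 3), above CDH2, and the mesenchymal gene TAGLN at 0.421 ± 0.243 RPKM, both named after their values were seen. In control cells the mean level in RPKM (CPM per kilobase of the canonical transcript) was 2518 ± 194 (SD, n = 3) for VIM, the intermediate filament of mesenchymal cells, 508 ± 202 for FN1, which encodes the matrix protein fibronectin, and 61.4 ± 18.3 for CDH2. SNAI2 followed at 29.2 ± 21.1 RPKM, and its library 1, at 53.5 RPKM, reached the range of CDH2. SNAI1 was at 9.10 ± 3.97 RPKM. EPCAM, an adhesion molecule of epithelial cells, was at 4.85 ± 1.68 RPKM, ZEB2 at 3.49 ± 1.14 and ZEB1 at 3.10 ± 1.11, and the ranges of these 3 overlapped. CDH1 was at 0.067 ± 0.111 RPKM. TWIST1 had no count in any of the 9 libraries, which allows a level of up to 0.0558 to 0.105 CPM depending on the library, for counting error only. In HIF-1α re-expressing cells FN1 stood beside VIM, with VIM at 2205 ± 356 RPKM and FN1 at 2167 ± 721 RPKM, whose ranges overlapped.

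The plot of CPM shows the values of each library, and the comparisons below ask whether either HIF-α moved these genes. In edgeR's quasi-likelihood test on pool alone, 0 of the 9 tested genes of the group passed an adjusted p of 0.05 in any of the 3 comparisons. The background was as low, with 0%, 0% and 0.0492% of 14225 genes called for HIF-1α against control, HIF-2α against control and HIF-1α against HIF-2α. At an unadjusted p of 0.05 the same fits passed 2757, 838 and 1941 genes, and DESeq2 called 751, 65 and 650 genes. With the replicate block edgeR called 7.96%, 0.267% and 5.93% of genes, and 2, 0 and 2 of the 9 tested genes of the group. These were CDH1 and FN1, higher in HIF-1α re-expressing cells than in either other pool.

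**Figure D1:**
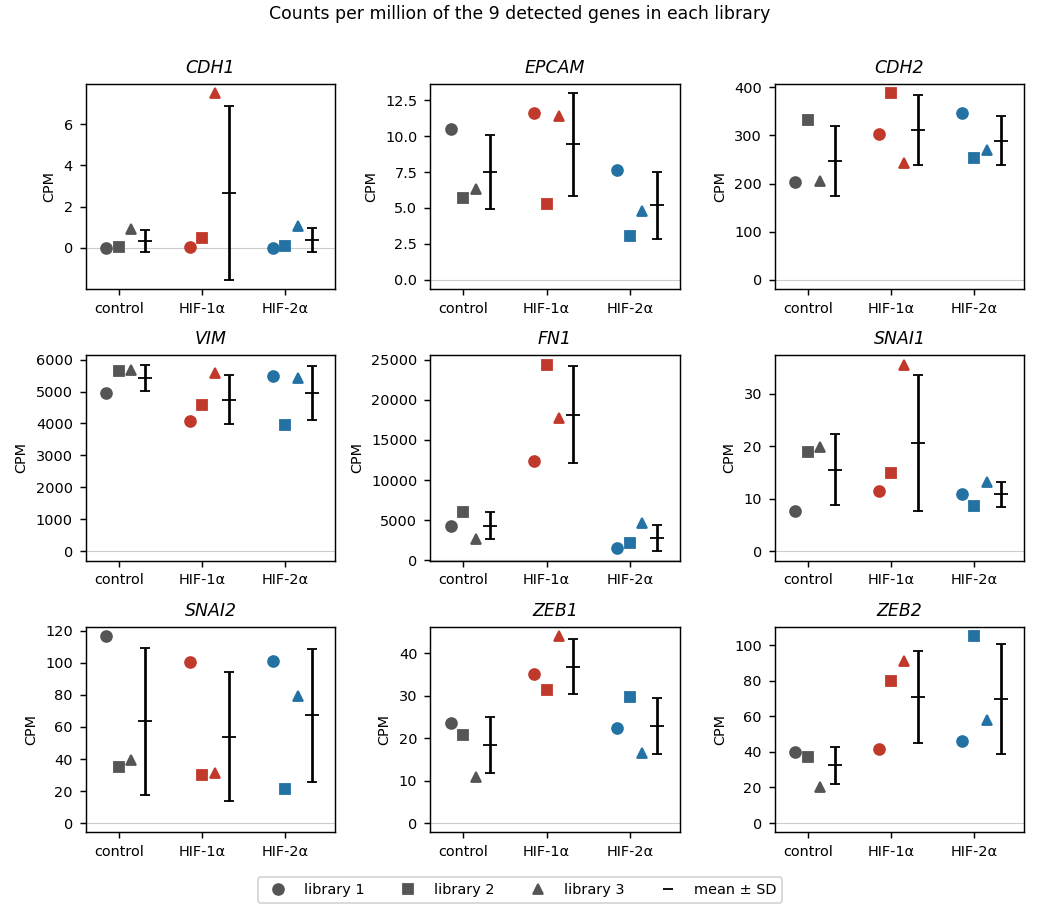
Level in CPM (y axis, linear, starting near 0) of the 9 detected genes in each library of the 3 pools, with a symbol for each library number and the mean ± SD of 3 libraries beside them. FN1 was between 12329 and 24413 CPM in HIF-1α re-expressing cells and at most 5985 CPM in the other 6 libraries, while CDH1 reached 7.52 CPM in 1 library.

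FN1 was at 4196, 5985 and 2604 CPM in control libraries 1, 2 and 3, at 12329, 24413 and 17805 CPM in the HIF-1α libraries, and at 1505, 2098 and 4611 CPM in the HIF-2α libraries. Every HIF-1α library was above every other library. Fibronectin was the gene with the most counts in all 3 HIF-1α libraries, with 1.26% to 2.44% of all counts, and ranked between 3 and 18 in control cells and between 6 and 48 in HIF-2α overexpressing cells. The rise over control within library numbers was 2.94-fold, 4.08-fold and 6.84-fold. On pool alone the log2 fold change against control was 2.09 (SE 0.49, edgeR adjusted p = 0.149). With the replicate block it was 2.03 (SE 0.43, edgeR adjusted p = 0.0371). Against HIF-2α overexpressing cells the log2 fold change was 2.73 (SE 0.51, edgeR adjusted p = 0.065) on pool alone and 2.75 (SE 0.45, edgeR adjusted p = 0.0111) with the block.

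The direction of the FN1 difference held in all settings and its call did not. The log2 fold change against control lay between 1.59 and 2.41 whichever library or library number was left out. With the block, the edgeR adjusted p against control passed 0.05 without control library 1, HIF-2α library 2 or HIF-2α library 3, and missed it without control library 2 (0.197), control library 3 (0.131), HIF-1α library 1 (0.0664), 2 (0.0936) or 3 (0.0924), or HIF-2α library 1 (0.057). Against HIF-2α overexpressing cells it missed the threshold only without HIF-2α library 1 (0.0515) among single libraries. DESeq2 on pool alone called FN1 in both comparisons (adjusted p = 0.00179 and 2.01e-06), and DESeq2 with the block did in neither (0.187 and 0.0933). HIF-2α overexpression gave a log2 fold change of -0.64 against control (SE 0.48, edgeR adjusted p = 0.844), with ratios of 0.359, 0.351 and 1.77 within library numbers.

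CDH1 had 0, 1 and 36 counts in control libraries 1, 2 and 3, 1, 18 and 404 counts in the HIF-1α libraries and 0, 2 and 41 counts in the HIF-2α libraries. E-cadherin RNA was thus near the limit of detection in libraries 1 and 2 of each pool, and the HIF-1α library was the highest within each number. In CPM, library 3 was at 0.938 in control, 7.52 in HIF-1α re-expressing and 1.05 in HIF-2α overexpressing cells, an 8.02-fold difference between the first 2. Of the variance of the log2 level, 81.2% lay between library numbers and 14.8% between pools. On pool alone the log2 fold change for HIF-1α against control was 3.04 (SE 1.96, edgeR adjusted p = 0.403). With the block it was 3.16 (SE 0.47, edgeR adjusted p = 0.0293), and against HIF-2α overexpressing cells it was 2.83 (SE 0.47, edgeR adjusted p = 0.0123). The pools overlapped.

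The CDH1 call with the block against control was lost in edgeR without control library 2 (adjusted p = 0.197), control library 3 (0.128), HIF-1α library 2 (0.0725), HIF-1α library 3 (0.0957) or HIF-2α library 1 (0.0529). Against HIF-2α overexpressing cells it was lost without HIF-1α library 2 (adjusted p = 0.0558), HIF-1α library 3 (0.082) or HIF-2α library 3 (0.21). On pool alone, leaving out HIF-1α library 3 turned the direction, to a log2 fold change of -0.43 against control and -0.66 against HIF-2α overexpressing cells. At its highest, in HIF-1α library 3, CDH1 was at 1.56 RPKM against 60.4 RPKM for CDH2.

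EPCAM was at 10.5, 5.69 and 6.33 CPM in control libraries, 11.6, 5.29 and 11.4 CPM in HIF-1α libraries and 7.66, 3.07 and 4.80 CPM in HIF-2α libraries. The pools overlapped, and within each number the HIF-1α library was above the HIF-2α library, by 1.51-fold, 1.72-fold and 2.38-fold. That difference had a log2 fold change of 0.89 with the block (SE 0.26, edgeR adjusted p = 0.0758) and of 0.86 on pool alone (SE 0.44, adjusted p = 0.416). DESeq2 with the block called it (adjusted p = 0.0162), in a range of 0.0162 to 0.481 over the settings that kept all libraries of both pools. Against control the log2 fold change with the block was 0.30 for HIF-1α and -0.59 for HIF-2α (edgeR adjusted p = 0.425 and 0.338).

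CDH2 was at 204, 332 and 204 CPM in control libraries, 303, 388 and 242 CPM in HIF-1α libraries and 347, 252 and 269 CPM in HIF-2α libraries. N-cadherin RNA overlapped among all 3 pools, and the log2 fold change against control was 0.34 (SE 0.28) for HIF-1α and 0.23 (SE 0.28) for HIF-2α, with edgeR adjusted p = 0.515 and 0.894.

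VIM was at 4940, 5657 and 5671 CPM in control libraries, 4074, 4594 and 5583 CPM in HIF-1α libraries and 5479, 3963 and 5417 CPM in HIF-2α libraries. Vimentin had the smallest SD relative to its mean of the 9 genes in every pool, and its log2 fold change was -0.19 (SE 0.26) and -0.13 (SE 0.26) against control, with edgeR adjusted p = 0.708 and 0.943. FN1 and VIM, both abundant mesenchymal genes, thus stood apart in the HIF-1α comparison.

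**Figure D2:**
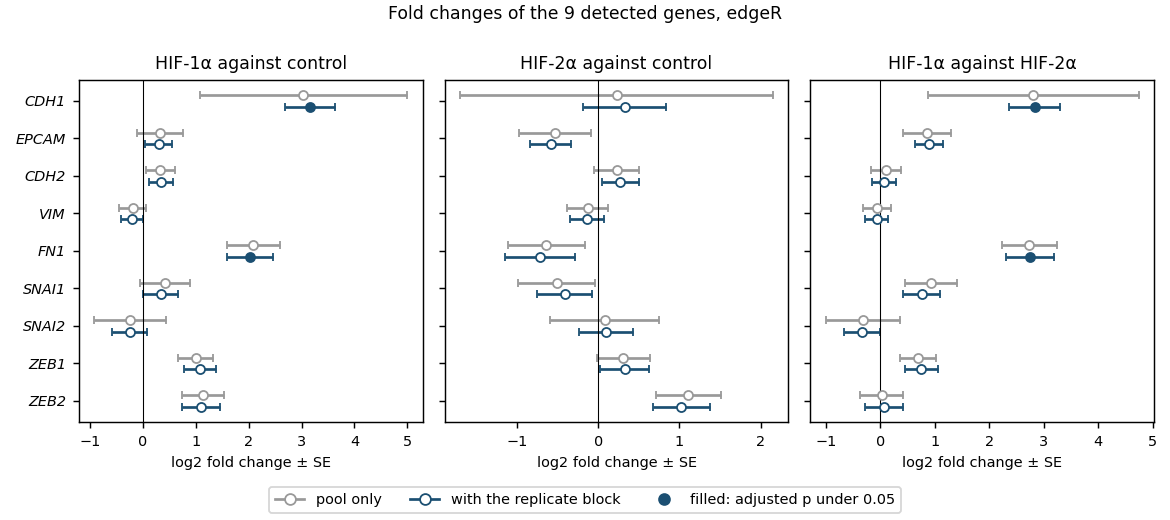
Log2 fold change with its standard error (x axis) of the 9 detected genes in the 3 comparisons, from edgeR on pool alone (grey) and with the replicate block (blue), where a filled point has an adjusted p under 0.05. CDH1 and FN1 are filled for HIF-1α against control and for HIF-1α against HIF-2α with the block, and the standard error of CDH1 falls from 1.96 to 0.47 in the first of these.

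Among the transcription factors, ZEB1 was at 23.5, 20.8 and 10.9 CPM in control libraries, 35, 31.4 and 44 CPM in HIF-1α libraries and 22.5, 29.6 and 16.4 CPM in HIF-2α libraries. The HIF-1α libraries lay above all others, by 1.49-fold, 1.51-fold and 4.03-fold over the control of the same number. The log2 fold change against control was 1.00 (SE 0.33, edgeR adjusted p = 0.181), and 1.08 with the block (SE 0.30, adjusted p = 0.0565). It passed the threshold in DESeq2 with the block (adjusted p = 0.00907), in a range of 0.00907 to 0.25 over the settings that kept all libraries of both pools.

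ZEB2, the other ZEB repressor, was at 39.8, 36.9 and 20.3 CPM in control libraries, 41.8, 79.9 and 91.1 CPM in HIF-1α libraries and 46.3, 105 and 58.2 CPM in HIF-2α libraries. Both infected pools lay above control without overlap, although HIF-1α library 1 exceeded its control by only 1.05-fold. The log2 fold change was 1.13 (SE 0.40, edgeR adjusted p = 0.194) for HIF-1α and 1.11 (SE 0.40, adjusted p = 0.796) for HIF-2α. With the block these were 1.10 (edgeR adjusted p = 0.0782) and 1.02 (adjusted p = 0.255), and the difference between the infected pools was 0.07 (SE 0.35). DESeq2 with the block called the HIF-1α difference (adjusted p = 0.0198), in a range of 0.0198 to 0.25 over settings.

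SNAI1, which encodes SNAIL, was at 7.71, 19 and 19.8 CPM in control libraries, 11.5, 15 and 35.6 CPM in HIF-1α libraries and 10.9, 8.55 and 13.2 CPM in HIF-2α libraries. The pools overlapped, with a log2 fold change against control of 0.42 (SE 0.47) for HIF-1α and -0.51 (SE 0.47) for HIF-2α (edgeR adjusted p = 0.648 and 0.87). Within each number HIF-1α exceeded HIF-2α, by 1.06-fold, 1.76-fold and 2.69-fold, and that log2 fold change was 0.76 with the block (SE 0.33, edgeR adjusted p = 0.204).

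SNAI2, which encodes SLUG, was at 117, 35.1 and 39.2 CPM in control libraries, 100, 30.1 and 31.0 CPM in HIF-1α libraries and 102, 21.1 and 79.1 CPM in HIF-2α libraries. Library 1 was the highest of each pool, and 81.2% of the variance lay between library numbers against 2.12% between pools. The log2 fold change against control was -0.24 (SE 0.67) for HIF-1α and 0.08 (SE 0.67) for HIF-2α (edgeR adjusted p = 0.868 and 0.989). CDH1 was lowest in libraries numbered 1 of all pools, by few counts. It was also near the limit of detection in libraries numbered 2, where SNAI2 was the lowest of each pool. HIF-2α library 3, with the most CDH1 counts of its pool, had SNAI2 at 79.1 CPM. A relation between these genes was not tested.

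Taking non-overlap of the pools as the measure, FN1, ZEB1 and ZEB2 were above control in HIF-1α re-expressing cells, 3 of 9 genes against a background of 12.9% of tested genes higher without overlap. ZEB2 alone was above control in HIF-2α overexpressing cells (background 6%), and HIF-1α re-expression put FN1 and ZEB1 above the HIF-2α pool (background 10.4%). The median log2 fold change of the 9 tested genes on pool alone was 0.42, 0.08 and 0.69 in the 3 comparisons, beside 0.04, -0.02 and 0.02 over all tested genes. The direction was split in the first, with 7 genes above 0 and SNAI2 and VIM below. Of the variance of the log2 level, 83.5% lay between pools for FN1, 59.6% for ZEB1 and 54.3% for ZEB2, and at most 35.7% for the others.

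Antisense transcripts overlap the exons of CDH1, CDH2, VIM, SNAI2, TWIST1, ZEB1 and ZEB2, among them VIM-AS1, ZEB1-AS1 and ZEB2-AS1, and none is a gene of the count table. The kit kept strand, but the sources used here do not state that the counting did, so their reads cannot be told apart from those of the genes.

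The 3 genes whose log2 CPM followed each gene most closely over the 9 libraries were found among 10670 tested genes with a mean of at least 5 CPM, as a description in which the libraries share pools and numbers. FN1 was followed by SVIL (r = 0.970), PTGER4 (0.947) and TRIM9 (0.943), CDH1 by ZSCAN18 (0.982), TMEM8B (0.977) and SLC27A1 (0.975), and EPCAM by FHL1 (0.951), THNSL1 (0.947) and THUMPD3 (0.945). ZEB1 was followed by ZNF827 (0.977), MEGF9 (0.974) and KIAA1109 (0.974), and ZEB2 by ZNF791 (0.977), ATP11B (0.974) and RAB8B (0.967). SNAI1 was followed by SDC2 (0.979), AHCYL1 (0.950) and NMT2 (0.946), and SNAI2 by DLGAP4 (0.958), SCG5 (0.957) and GZF1 (0.956). CDH2 was followed, among others, by UNKL (0.896) and ZNF33A (0.888), and VIM by MAGED1 (0.923), MZT2B (0.913) and CPNE1 (0.898).

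HIF binding was then placed around the same genes. Peaks are windows of 2500 bp with no score, from 1 ChIP library each, so binding is given as present or absent and carries no test. Of the 10 genes, 7 had a peak of any list within 10 kb of an annotated start site, against 38.9% of 22063 placed genes. CDH1, SNAI2 and TWIST1 had none. By list, 1 gene was next to a HIF-2α peak in control cells (background 3.74%) and 5 to a HIF-1β peak (18.3%). In HIF-1α re-expressing cells 4 were next to a HIF-1α peak (23.9%), 1 to a HIF-2α peak (3.05%) and 5 to a HIF-1β peak (28%). In HIF-2α overexpressing cells 5 were next to a HIF-2α peak (10.4%) and 3 to a HIF-1β peak (11.3%). The 24 peaks nearest to these start sites held a hypoxia response core within 150 bp of the midpoint in 14 cases and within 500 bp in 22. Over all peaks of the 7 lists the shares were 45.7% to 68.2% and 79% to 96.8%, so the peaks of these genes were near the background.

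**Figure D3:**
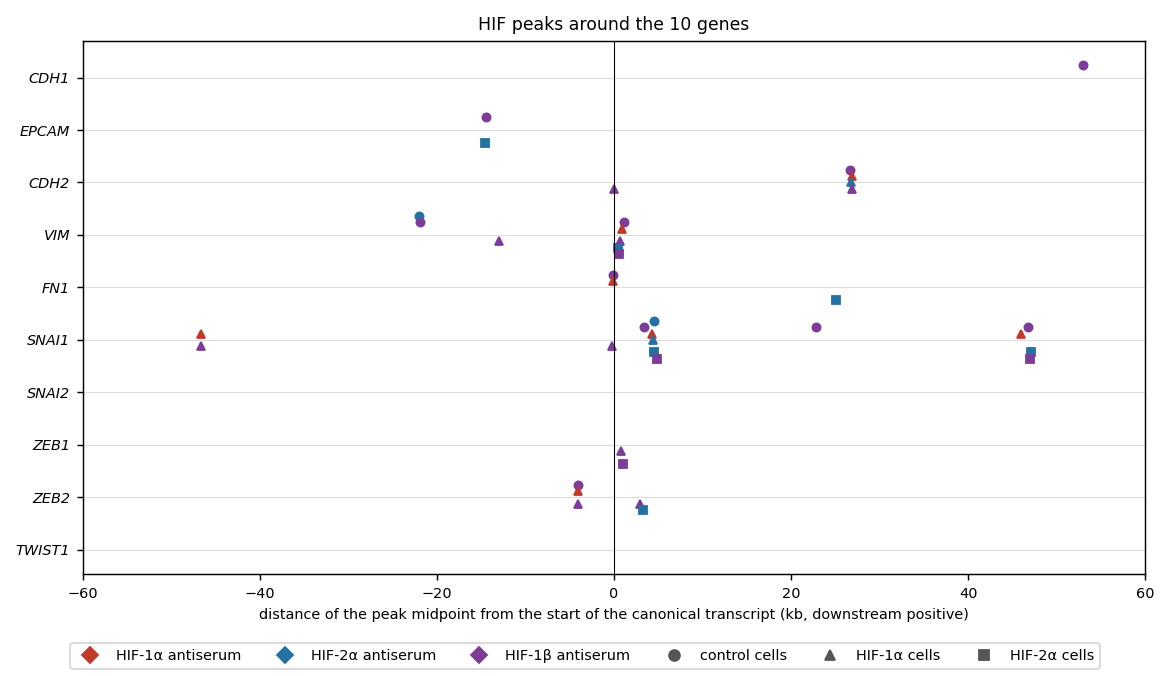
Distance of the midpoint of each HIF peak from the start of the canonical transcript (x axis, kb, downstream positive) for the 10 genes, with colour for the antiserum and symbol for the pool, within 60 kb. FN1 has a HIF-1α and a HIF-1β peak at its start and a HIF-2α peak 25.1 kb downstream, SNAI1 has peaks of 6 lists 3.36 to 4.86 kb downstream, and SNAI2 and TWIST1 have none.

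FN1 had a HIF-1α peak in HIF-1α re-expressing cells with its midpoint 0.152 kb upstream of the canonical start, and a HIF-1β peak in control cells at 0.108 kb upstream. Its promoter sequence, printed above, held no hypoxia response core, AP-1 site or E-box within 500 bp of the HIF-1α midpoint, whereas 94.8% of the HIF-1α peaks held a hypoxia response core in a window of that size. The midpoint was 33 bp from a start site of FN1-DT. No HIF-1β peak of the HIF-1α re-expressing cells lay closer to an FN1 start site than 51.5 kb. In HIF-2α overexpressing cells a HIF-2α peak lay in intron 13, 25.1 kb downstream of the canonical start and 1.05 kb from an alternative start site. It had 2 AP-1 sites at 25 and 63 bp from the midpoint. No hypoxia response core lay within 150 bp, but 3 lay within 500 bp. Within 150 bp, an AP-1 site was present in 24.7% of peaks of that list and a hypoxia response core in 45.7%. Within 500 bp, 79% of them held such a core. FN1 RNA, as given above, was high in the pool with the HIF-1α peak at the promoter and not in the pool with the HIF-2α peak in the intron. Control cells, in which FN1 RNA was lower, had a HIF-1β peak at the promoter. Each list comes from 1 ChIP library, and a link between these peaks and FN1 RNA was not tested.

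SNAI1 was the only one of the 10 genes next to a HIF-2α peak in control cells. The HIF-2α midpoints lay in intron 2 at 4.51 kb downstream of the start in control cells, 4.37 kb in HIF-1α re-expressing cells and 4.52 kb in HIF-2α overexpressing cells. A HIF-1α peak lay at 4.25 kb in HIF-1α re-expressing cells, and HIF-1β peaks at 3.36 kb in control and 4.86 kb in HIF-2α overexpressing cells. In HIF-1α re-expressing cells the HIF-1β peak lay at the start itself, 0.168 kb upstream. The intronic sequence printed above has its AP-1 site 40 bp from the control midpoint, in a list in which 27.5% of windows held one. SNAI1 RNA did not pass the test in either infected pool.

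ZEB2 had 2 groups of peaks. The first lay 4 kb upstream of the canonical start, where HIF-1α (4.01 kb) and HIF-1β peaks of HIF-1α re-expressing cells and a HIF-1β peak of control cells were called, and the HIF-1α midpoint was 230 bp from a start site of the non-coding gene LINC01412. The second lay in intron 2, with a HIF-2α peak of HIF-2α overexpressing cells at 3.27 kb and a HIF-1β peak of HIF-1α re-expressing cells at 2.95 kb downstream. Neither the HIF-1α peak upstream nor the HIF-2α peak in the intron held a hypoxia response core within 150 bp, but within 500 bp they held 4 and 1. ZEB1 had only HIF-1β peaks, in intron 1 at 0.808 kb in HIF-1α re-expressing cells and 1.05 kb in HIF-2α overexpressing cells, with 3 and 2 hypoxia response cores within 150 bp. No HIF-1α or HIF-2α peak lay closer to a ZEB1 start site than 217 kb.

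VIM had peaks of 5 lists between 0.479 and 1.13 kb downstream of its canonical start, a stretch with several alternative start sites. They were HIF-1β peaks of all 3 pools, the HIF-1α peak of HIF-1α re-expressing cells and the HIF-2α peak of HIF-2α overexpressing cells. In control cells a HIF-2α peak lay 22 kb upstream, closer to a start site of TRDMT1 (4182 bp). VIM RNA did not pass the test in either infected pool. CDH2 had HIF-1α, HIF-2α and HIF-1β peaks of HIF-1α re-expressing cells and a HIF-1β peak of control cells in intron 1, 26.7 to 26.9 kb downstream, at the sequence printed above, and no peak of HIF-2α overexpressing cells within 50 kb. A further HIF-1β peak of HIF-1α re-expressing cells lay at its start, at 0.062 kb.

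EPCAM had a HIF-2α peak of HIF-2α overexpressing cells 14.6 kb and a HIF-1β peak of control cells 14.4 kb upstream of its canonical start, 9.54 and 9.78 kb from an alternative start site. The hypoxia response core lay 4 bp before the HIF-2α midpoint. CDH1 had 1 peak within 60 kb, of HIF-1β in control cells, in intron 2 at 53 kb downstream of its canonical start and 11.4 kb from an alternative one. It held no hypoxia response core, AP-1 site or E-box within 150 bp. No HIF-1α or HIF-2α peak lay closer to a CDH1 start site than 239 kb in any pool. For SNAI2 the closest peak of any list was at 132 kb and for TWIST1 at 139 kb.

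Other genes of epithelial and mesenchymal state were read from 6 lists. On pool alone 0 genes of these lists passed in edgeR, and the counts that follow are with the replicate block, in which 7.96%, 0.267% and 5.93% of all genes were called. For HIF-1α against control the block called 2 of 18 tested junction and cytoskeleton genes, 0 of 5 regulators of the epithelial state, 3 of 17 mesenchymal genes, 1 of 12 other transcription factors, 1 of 4 catenins and cadherin partners and 0 of 12 TGF-β pathway genes. The median log2 fold changes of these lists were 0.19, 0.42, 0.48, 0.36, 0.13 and 0.23, beside 0.04 over all genes.

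**Figure D4:**
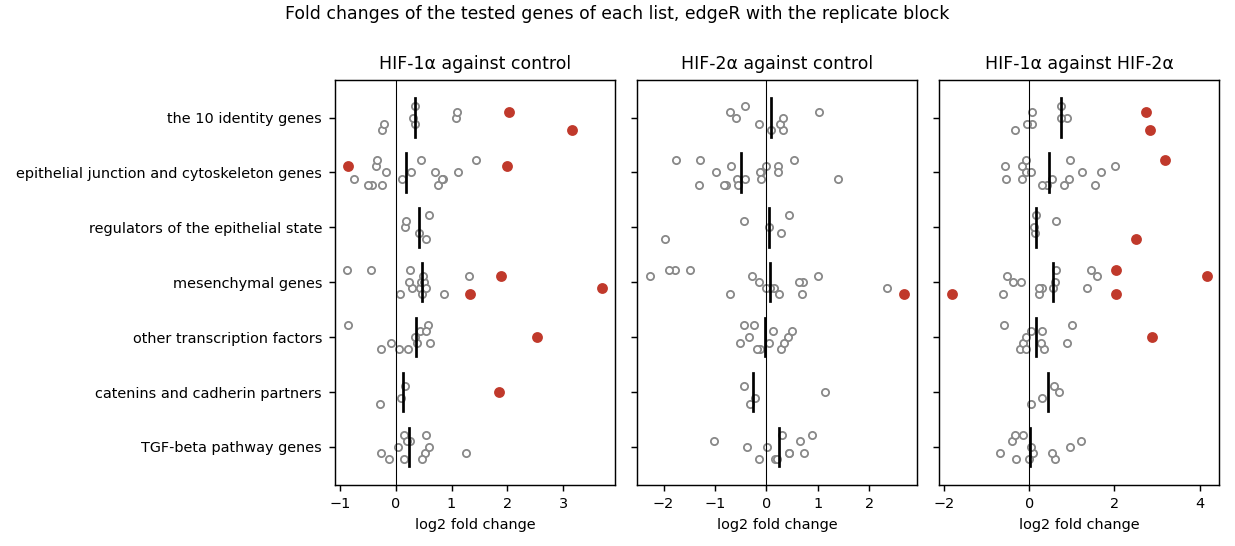
Log2 fold change from edgeR with the replicate block (x axis) of each tested gene of the 10 identity genes and of 6 related lists, in the 3 comparisons, with filled red points for an adjusted p under 0.05 and a bar at the median of the list. Filled points stand on the right for HIF-1α against control except KRT18.

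LOX, a lysyl oxidase that crosslinks collagen, was at 42.5, 7.40 and 11.9 CPM in control libraries, 91.5, 485 and 209 CPM in HIF-1α libraries and 90.3, 115 and 96.3 CPM in HIF-2α libraries, and rose by a log2 fold change of 3.70 over control in HIF-1α re-expressing cells (SE 0.80, edgeR adjusted p = 0.0388). CDH11, a mesenchymal cadherin, rose by 1.89 on the log2 scale (SE 0.48, edgeR adjusted p = 0.0461) and the matrix protein TNC by 1.33 (SE 0.33, adjusted p = 0.0452). The repressor KLF8 rose by 2.53 (edgeR adjusted p = 0.0419) and CTNND1, which encodes p120-catenin, by 1.84 (adjusted p = 0.0468), both from low levels, at most 10.1 CPM. Of the junction genes, MUC1, a mucin of the apical surface, rose by 1.99 (edgeR adjusted p = 0.0461), and KRT18, a keratin of simple epithelia, was at 212, 172 and 191 CPM in control libraries against 142, 97.0 and 84.9 CPM in HIF-1α libraries (log2 fold change -0.86, adjusted p = 0.0405). The junction list was thus split, with 1 gene called higher and 1 lower, and 2 of 18 called is near the background of 7.96%. Its summed level was 1425 to 1790 CPM in control, 1073 to 1378 in HIF-1α re-expressing and 899 to 1405 in HIF-2α overexpressing cells. Both infected pools thus lay below control without overlap in this sum, which is weighted to the abundant genes. Gene by gene on pool alone, 10 of 18 were above 0 and 8 below for HIF-1α against control (median log2 fold change 0.20). For HIF-2α against control 5 were above 0 and 13 below (median -0.43). The mesenchymal list summed to 4262 to 7117 CPM in control, 5002 to 13276 in HIF-1α re-expressing and 8857 to 11532 in HIF-2α overexpressing cells. In this sum, also weighted to abundant genes, only the HIF-2α pool lay above control without overlap. Gene by gene, 14 of 17 mesenchymal genes were above 0 for HIF-1α against control and 9 of 17 for HIF-2α (medians 0.51 and 0.09). KRT8, named after its values were seen, was the keratin with the most counts in the junction list and had a log2 fold change of -0.74 for HIF-1α against control (edgeR adjusted p = 0.0675 with the block). For HIF-2α against control, KRT18 and KRT8 had log2 fold changes of -0.69 and -0.58 with the block (edgeR adjusted p = 0.197 and 0.309). Between the infected pools they differed by only -0.17 and -0.16. As for FN1 and CDH1, the calls named here belong to HIF-1α against control. In that comparison, leaving out control library 2, control library 3, HIF-1α library 2 or HIF-2α library 1 left 0 genes called with the block.

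Between the infected pools, HIF-1α re-expressing cells were higher with the block in CDH11 (log2 fold change 4.16, edgeR adjusted p = 0.0052), TNC (2.04, 0.0118), CDH6, a cadherin of the kidney (2.04, 0.0172), KLF8 (2.88, 0.03) and ELF3, an epithelial transcription factor (2.51, 0.0156). CLDN7, a tight junction claudin, was also called (3.19, 0.034) from at most 1.43 CPM, and is named after its values were seen. For CDH6 and ELF3 the larger part of the gap lay below control in HIF-2α overexpressing cells. Against control with the block, CDH6 had a log2 fold change of 0.26 for HIF-1α and -1.78 for HIF-2α (edgeR adjusted p = 0.644 and 0.0991). ELF3 had 0.54 and -1.97 (edgeR adjusted p = 0.41 and 0.125). CDH11 was at 1.89 and -2.27, and TNC at 1.33 and -0.70. The renal markers also moved in part. The renal markers CA9 and MME rose over control in HIF-1α re-expressing cells (log2 fold change 5.72 and 1.39, edgeR adjusted p = 0.0427 for both). Of the 8 tested renal markers, 2 were above 0 on pool alone and 6 below for HIF-1α against control, with a median log2 fold change of -0.11 (-0.16 with the block). For HIF-1α against HIF-2α, 7 were above 0 and 1 below, with a median of 0.31 (0.33 with the block). CA9, a hypoxia-regulated carbonic anhydrase, was at 14.3 CPM in control library 3 against 8.46 CPM in HIF-1α library 1. The summed level of the 9 renal markers was 589 to 918 CPM in control, 521 to 882 in HIF-1α re-expressing and 438 to 611 in HIF-2α overexpressing cells. The 6 leukocyte and endothelial markers summed to at most 0.931 CPM, with PTPRC and VWF at most at 0.155 CPM. The part of the renal markers in the values of the 10 genes was not tested.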

How the data were processed

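The authors aligned RNA-seq reads to GRCh37 with TopHat2 2.0.8b and Bowtie 1.0.0, removed reads without a unique position, and deposited raw counts per UCSC gene made with HTSeq 0.5.4p3, not normalized. For ChIP-seq the authors aligned with BWA 0.7.5a-r405, called peaks with T-PIC and MACS against control, and deposited positions with no score, so the depth of those libraries is unknown. Groups were taken from the labels. The labels do not say that library numbers mark separate cultures, so p-values may measure technical spread.

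Here counts were filtered with filterByExpr, scaled by TMM and tested by edgeR 4.0.16 (R 4.3.3) in 1 fit over 9 libraries, with Benjamini-Hochberg adjustment over 14225 genes and a threshold of 0.05. The replicate block and DESeq2 1.42.0 were alternatives. On simulated counts of HIF-1α against control with replicate effects, 200 genes changed 4-fold among 13917 were recovered at 59% on pool alone and 94.5% with the block, with 0 and 10 unchanged genes called. Without replicate effects, among 13884 genes, recovery was 82% and 78%, with 8 and 12 unchanged genes called. With 27852754 to 54287621 counts per library, 3 counts, the limit a count of 0 allows, are 0.0558 to 0.105 CPM. Start sites came from GENCODE 44 on GRCh37, to which 22063 of 23441 symbols were matched, 1409 of them by an older symbol. Windows and motifs were read with bedtools 2.31.1 and samtools 1.23.1.

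Named genes were the 10 genes, HIF1A and EPAS1, up to 4 called genes per list and comparison with at least 5 CPM, and the 3 genes closest in pattern to each. The genes, lists and tests were chosen with earlier results of these data known. Some items are not reported here.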

Additional observations from a re-analysis of the deposited data

Results flagged for a closer look

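The effects of the 2 infections differed for 2 genes of the group by the test of the difference itself, edgeR with the replicate block. For FN1 the difference between HIF-1α and HIF-2α was 2.75 on the log2 scale (SE 0.45, adjusted p = 0.0111), and the HIF-1α library was higher in 3 of 3 library numbers. The adjusted p was 0.065 on pool alone and ranged from 2.01e-06 to 0.0933 over the settings that kept all libraries of both pools. For CDH1 the difference was 2.83 (SE 0.47, adjusted p = 0.0123), also in 3 of 3 numbers, from 404 against 41 counts in library 3 and 18 counts or fewer in the others. Its adjusted p was 0.555 on pool alone and ranged from 0.00107 to 0.658.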

How the results depend on the processing

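The replicate block raised the genes called from 0 to 1132 for HIF-1α against control, from 0 to 38 for HIF-2α against control and from 7 to 843 for HIF-1α against HIF-2α, and those of the 10 genes from 0 to 2, 0 and 2. It changed no other call of the group. DESeq2 called 751, 65 and 650 genes, with 1, 0 and 1 of the group. DESeq2 with the block, chosen after seeing the data, called 3025, 487 and 1798, with 3, 0 and 2. Without a filter on low counts 1 gene was called for HIF-2α against control and 82 for HIF-1α against HIF-2α, with 1 of the group in the latter. With only the 2 pools compared the counts were 2 and 0 in these comparisons. The count of peaks with a hypoxia response core moved from 14 to 22 with windows of 500 bp. Scaling by DESeq2's size factors changed no count of calls, and other windows around start sites gave 6 to 8 genes with a peak.

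Leaving out libraries or numbers gave, on pool alone and with the block (the latter by single library chosen after seeing the data), 0 to 2408 genes for HIF-1α against control, 0 to 94 for HIF-2α against control and 0 to 890 for HIF-1α against HIF-2α. Of the group it gave 0 to 4, 0 and 0 to 2. Of 725 recomputed fold changes of the group 645 kept direction and side of the threshold, 40 newly passed it and 40 changed sign, 1 of them in a setting with all libraries (ZEB2, HIF-1α against HIF-2α, -0.00835 in DESeq2). Over the settings that left something out, the log2 fold change for HIF-1α against control ranged from -0.43 to 7.31 for CDH1, from -0.23 to 0.72 for SNAI1 and from -1.06 to 0.53 for SNAI2. For HIF-2α against control it ranged from -3.28 to 4.51 for CDH1, from -0.47 to 0.86 for SNAI2 and from -0.31 to 0.0358 for VIM. For HIF-1α against HIF-2α it ranged from -0.66 to 6.29 for CDH1, from -0.22 to 0.26 for CDH2, from -0.24 to 0.11 for VIM, from -0.40 to 0.42 for ZEB2 and from -1.14 to 0.23 for SNAI2. The cause was not tested.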
